A study of Mus musculus with 6 samples.

Results

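The genes described here encode the machinery of ribosome biogenesis: RNA polymerases I and III with their factors, the complexes that process and modify ribosomal RNA, and the proteins that assemble both subunits. They were taken from a list of 54 symbols, and a gene counted as measured where a probe set (the group of array probes read as 1 value) carried its symbol alone. The probe set with the highest mean stood for each gene, which gave 53 members of 19937 genes measured. No probe set carried Noc2l alone, and it was not analysed here.

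Ribosomes are made mainly in the nucleolus, where RNA polymerase I copies the ribosomal RNA genes into a long precursor. Early processing complexes bind the growing precursor and cut out the RNA of the small subunit, while small nucleolar ribonucleoproteins (snoRNPs) methylate chosen riboses or convert chosen uridines to pseudouridine. RNA polymerase III makes the short ribosomal RNA and the transfer RNAs, and these genes as a group are known to be expressed highly in growing cells.

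The arrays compared transduced hematopoietic cells of C57BL6 Rosa26rtTA mice, which carry a doxycycline-dependent transactivator, after depletion of lineage-positive cells (Lin-). In 3 arrays the lentiviral vector carried Evi1, which encodes a zinc finger transcription factor, ahead of an internal ribosome entry site and EGFP under a tetracycline-responsive promoter, and in 3 it carried EGFP under the same promoter. Both groups were grown with mSCF (50 ng/ml), mIL-3 (20 ng/ml), hFlt-3 ligand (50 ng/ml) and hIL-11 (50 ng/ml), received virus 24 h after isolation and doxycycline (1 µg/ml) 24 h after virus, and were sorted for EGFP. The design text puts the RNA at 20 h of doxycycline and the sample labels at 24 h, the age of the mice is not given in the sources used here, and nothing in the labels ties the replicates to different animals or cultures. P-values therefore measure the spread between these arrays, which may be technical.

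Mecom, the gene that encodes EVI1, read 6.29, 6.18 and 6.49 on the log2 scale in the arrays labelled EVI1, against 6.39, 7.53 and 6.86 in those labelled EGFP. The difference of -0.60 did not pass (adjusted p = 0.166 in limma; p = 0.2 by an exact permutation test, two-sided, whose smallest possible value is 0.1). A second Mecom probe set, not tested, read 6.39, 6.28 and 6.37, against 6.66, 6.63 and 6.45, a difference of -0.23. Neither probe set was thus higher in the arrays labelled EVI1. For each, both group means lay below the olfactory level, the 95th percentile over olfactory receptor genes, which these cells should not express. The array therefore does not check the labels, and every direction below is that of the labels. Among markers of stem and progenitor cells, 5 of 7 measured fell and 1 rose, with array means of 9.46 to 9.53 in arrays labelled EVI1 and 10.33 to 10.43 in those labelled EGFP. Mast cell and basophil markers fell in 6 of 7 (8.67 to 8.92, against 10.31 to 10.86), with Tpsb2 below the olfactory level in both groups. Of 11 neutrophil markers 6 fell and 1 rose (8.78 to 9.51, against 10.34 to 10.92), and of 8 monocyte and macrophage markers 4 fell and 3 rose (9.41 to 9.97, against 9.95 to 10.38). None of 5 markers of mature T, B and erythroid cells passed the limma test in either direction, and none did at an unadjusted p under 0.05. Their array means were 6.57 to 6.73, against 6.49 to 6.64, with Cd4, Cd8a and Ms4a1 below the olfactory level in both groups. With single arrays left out, 3 to 5 stem and progenitor markers and 2 to 4 monocyte and macrophage markers fell. The lower counts were 3 without EGFP replicate 3 or EVI1 replicate 2, and 2 without EGFP replicate 1 or EVI1 replicate 2 or 3. The part of these marker shifts in the results below was not tested, and in such bulk samples fewer cells of a type and less RNA per cell cannot be told apart.

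The arrays labelled EVI1 read lower for ribosome biogenesis genes, with larger median differences for snoRNP and early small-subunit genes than for the polymerases. Of the 53 members, 40 fell (limma adjusted p under 0.05 over all genes), where 9.18% of all genes fell. None rose, where 9.06% of all genes did, and none was higher at an unadjusted p under 0.05. At least 2-fold falls were found for 21 members, against 3.03% of all genes. The median member had a log2 fold change, EVI1 minus EGFP, of -0.83, a 1.77-fold lower level, and the median of all genes was 0.01. All 53 differences were negative, from -1.80 for Dkc1 to -0.05 for Taf1d. For 47 members the 3 arrays labelled EVI1 lay below all 3 labelled EGFP, as they did for 16.5% of all genes. No member lay below the olfactory level of 6.99 in the arrays labelled EVI1 or 6.95 in those labelled EGFP. Of all 19937 genes, 7879 lay below it in either group, and the shares of all genes given here include them.

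The mean over all members was 9.08, 9.12 and 9.10 in the arrays labelled EVI1, against 9.84, 10.01 and 10.05 in those labelled EGFP. The groups did not overlap. When each replicate number was kept as a block, 43 members fell, where 11.0% of all genes did. Imp4 (adjusted p = 0.0117), Wdr3 (0.0418), Nop16 (0.0139) and Rrs1 (0.0165) passed in that limma fit, and Ncl did not (0.0523). When single arrays were left out in turn, 30 to 43 members fell, and 29 of the 40 passed every time.

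**Figure D1:**
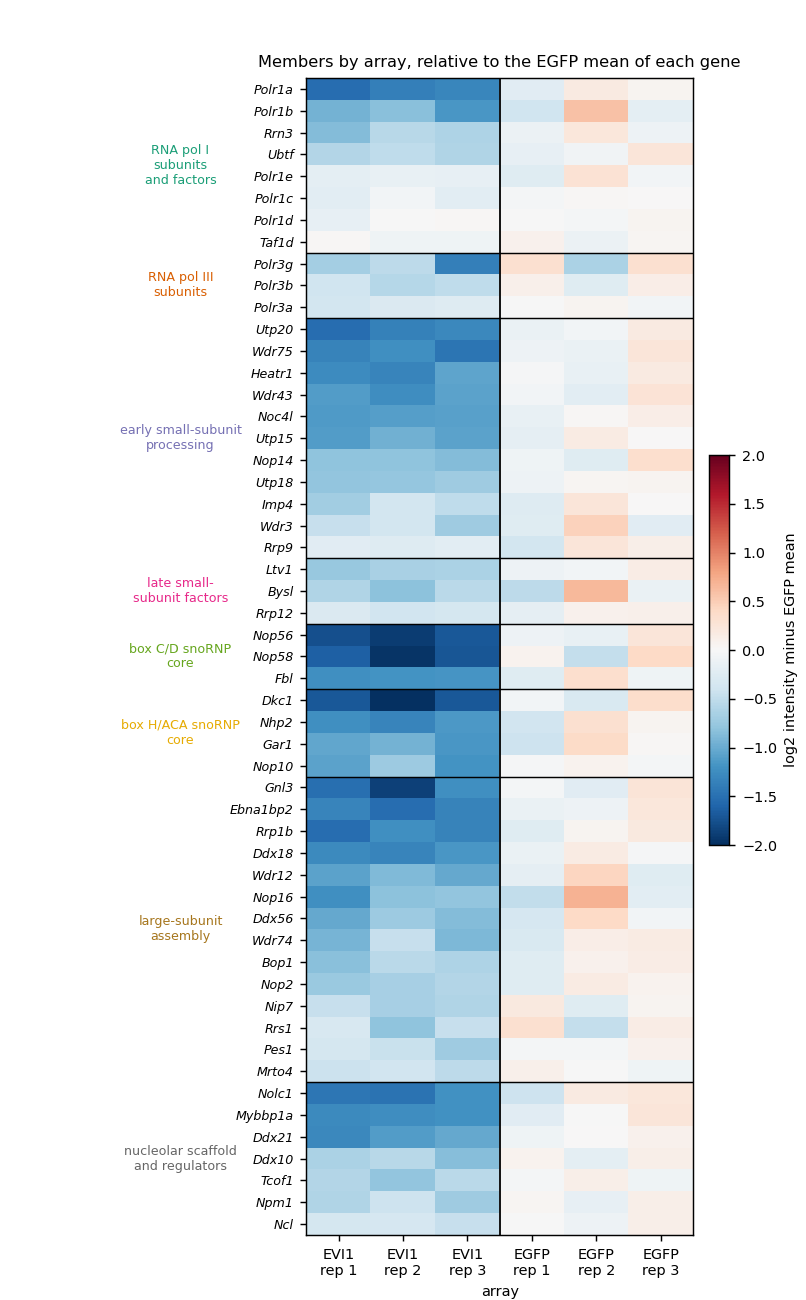
Log2 intensity of each of the 53 members (rows, by role) in each array (columns, arrays labelled EVI1 at left, EGFP at right), minus the mean of the 3 EGFP arrays for that gene. Blue is lower and red higher; the columns of the arrays labelled EVI1 are blue for most members and pale for Polr1c, Polr1d, Polr1e and Taf1d.

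Since most members were lower together, their promoters were read for shared motifs. RefSeq promoter windows (GRCm38.p6, 250 bases before to 50 after the start) were listed for 46 of the 53 members, 54 windows in all. The E-box CACGTG, a sequence bound by Myc and related factors, was present in 9 of these windows (16.7%) and in 7.15% of all 32851 promoters in the table. Counted by gene, it was found in 4 of 11 early small-subunit genes and in 1 of the 10 polymerase genes that have a window. The share over all genes in the table was 8.09%. Ubtf alone has 6 windows, none with either motif. The ETS core, CGGAAG or CTTCCG, was present in 26 member windows (48.1%), against 16.9% of all promoters. By gene it was found in 7 of 11 early small-subunit and 5 of 10 polymerase genes, against 18.8% of all genes in the table. CACGTG reads alike on both strands, and the ETS core was searched in both spellings, which can overlap each other. Promoters rich in G and C share base composition, so these shares are descriptions with no test. The sequences printed are Rrn3, the polymerase gene with an E-box among the 10 searched, Utp20 and Utp18 of early small-subunit processing, and Nop2 of large-subunit assembly. They lie at chr16:13780449-13780748 (+), chr10:88826765-88827064 (-), chr11:93885717-93886016 (-) and chr6:125131633-125131932 (+), each 5′ to 3′ on the strand of the gene with the E-box in capitals.
Rrn3: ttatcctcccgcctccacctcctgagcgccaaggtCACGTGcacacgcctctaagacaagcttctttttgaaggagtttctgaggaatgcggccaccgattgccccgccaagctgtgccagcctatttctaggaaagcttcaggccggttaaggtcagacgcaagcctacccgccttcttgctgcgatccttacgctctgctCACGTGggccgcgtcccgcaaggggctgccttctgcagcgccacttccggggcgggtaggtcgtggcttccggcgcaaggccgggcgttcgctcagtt
Utp20: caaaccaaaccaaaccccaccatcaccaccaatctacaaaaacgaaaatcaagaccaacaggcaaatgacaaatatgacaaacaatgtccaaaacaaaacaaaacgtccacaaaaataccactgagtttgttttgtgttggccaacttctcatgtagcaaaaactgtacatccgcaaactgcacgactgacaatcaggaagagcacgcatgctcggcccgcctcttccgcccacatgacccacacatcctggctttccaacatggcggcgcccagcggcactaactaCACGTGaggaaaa
Utp18: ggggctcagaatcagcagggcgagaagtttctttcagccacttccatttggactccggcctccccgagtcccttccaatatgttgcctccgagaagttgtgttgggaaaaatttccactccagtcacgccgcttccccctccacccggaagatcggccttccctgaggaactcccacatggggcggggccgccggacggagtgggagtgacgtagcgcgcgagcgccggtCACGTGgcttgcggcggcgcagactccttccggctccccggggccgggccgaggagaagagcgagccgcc
Nop2: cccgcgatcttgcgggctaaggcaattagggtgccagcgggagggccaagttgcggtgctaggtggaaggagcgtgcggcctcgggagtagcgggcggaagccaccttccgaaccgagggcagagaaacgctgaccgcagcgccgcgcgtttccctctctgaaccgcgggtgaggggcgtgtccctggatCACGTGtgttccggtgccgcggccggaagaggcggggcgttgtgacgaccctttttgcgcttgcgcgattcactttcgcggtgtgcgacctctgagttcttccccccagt
The first base of the E-box lay at -215 and -48 from the start in Rrn3, at 37 in Utp20, at -20 in Utp18 and at -60 in Nop2. A match is a description of letters and not of a bound site.

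Of the 8 RNA polymerase I subunits and factors, 4 fell and 4 did not pass, with a median log2 fold change of -0.37. Polr1a, the largest subunit and part of the catalytic centre, read 7.93, 8.09 and 8.15 in the arrays labelled EVI1, against 9.23, 9.64 and 9.51 in those labelled EGFP. It was 2.64-fold lower (-1.40 ± 0.13, SE; limma adjusted p = 0.000382) and the groups lay far apart. Polr1b, the second-largest subunit, read 7.73, 7.83 and 7.51, against 8.28, 9.26 and 8.48. It fell as well (-0.98 ± 0.24, adjusted p = 0.0231), with EGFP replicate 2 standing above the other arrays. Rrn3, the factor that brings the polymerase to its promoter, had 9.71, 10.03 and 9.97 in the arrays labelled EVI1 and 10.46, 10.81 and 10.48 in those labelled EGFP. Its fall was 1.60-fold (-0.68 ± 0.14, adjusted p = 0.0120). Ubtf, which binds along ribosomal DNA and holds it open, had 8.89, 8.96 and 8.88, against 9.30, 9.40 and 9.71, without overlap (-0.56 ± 0.13, adjusted p = 0.0179).

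The other 4 polymerase I members did not pass. Polr1d, a small subunit shared with RNA polymerase III, read 11.65, 11.80 and 11.83 in the arrays labelled EVI1, against 11.80, 11.77 and 11.87 in those labelled EGFP. The groups overlapped (-0.05 ± 0.10, adjusted p = 0.836), and without EVI1 replicate 1 the difference was 0.0041. Polr1c, the partner of Polr1d in both enzymes, differed by -0.16 ± 0.10 (adjusted p = 0.366), and Polr1e, a subunit special to RNA polymerase I, by -0.17 ± 0.14 (adjusted p = 0.536). Taf1d, a subunit of the promoter selectivity factor, read 13.45, 13.34 and 13.33, against 13.51, 13.31 and 13.46, with overlap (-0.05 ± 0.11, adjusted p = 0.843). Its value depends on the probe set: the brightest has no RefSeq messenger RNA accession, and the one that has such an accession differed by -0.62. The other 4 probe sets of Taf1d differed by -1.66 to -0.40. The brightest also read near the top of the arrays, whose highest values were 13.8 to 13.9. Whether the response was flatter there was not tested.

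Among the 3 RNA polymerase III members, Polr3b passed. Polr3b, the second-largest subunit, read 8.79, 8.62 and 8.67 in the arrays labelled EVI1, against 9.29, 8.94 and 9.32 in those labelled EGFP, without overlap (-0.49 ± 0.13, adjusted p = 0.0339). Polr3a, the largest subunit, read 8.63, 8.70 and 8.73, against 8.99, 9.06 and 8.95 (-0.31 ± 0.10, adjusted p = 0.0676). Polr3g, which marks one of the alternative forms of the enzyme, read 8.47, 8.63 and 7.78, against 9.47, 8.51 and 9.47. EGFP replicate 2 lay within the range of the arrays labelled EVI1, and the difference of -0.86 ± 0.30 did not pass (adjusted p = 0.0964). Without that array it was -1.18 (adjusted p = 0.00862). Polr3gl, its paralog in the other form, differed by -0.27 ± 0.16 (adjusted p = 0.340).

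Several polymerase calls did not hold with 1 array left out, in fits with fewer arrays. Polr1b lost its call without any 1 array labelled EVI1 (limma adjusted p 0.0595 without replicate 1, 0.0519 without 2 and 0.104 without 3). Its log2 fold change was then -1.002, -1.05 and -0.89, against -0.98 with all arrays. Ubtf lost its call without EGFP replicate 3 (0.0518), EVI1 replicate 1 (0.0620) or EVI1 replicate 3 (0.0693). Polr3b lost its call without EGFP replicate 1 (0.101) or 3 (0.118) and without EVI1 replicate 1 (0.0637), 2 (0.114) or 3 (0.109). Between 2 and 6 of the 11 polymerase members then fell, against 5 with all arrays, and Polr1a and Rrn3 passed every time.

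Early small-subunit processing genes fell in 8 of 11 cases, with a median of -1.05 and 6 at least 2-fold lower. Utp20, a scaffold of the small-subunit processome, read 7.63, 7.80 and 7.87 in the arrays labelled EVI1, against 9.03, 9.10 and 9.34 in those labelled EGFP. It was 2.62-fold lower (-1.39 ± 0.12, adjusted p = 0.000313). Wdr75 and Heatr1 belong to the complex that joins the precursor while it is still being transcribed. Wdr75 had 9.59, 9.69 and 9.46, against 10.82, 10.78 and 11.16 (-1.34 ± 0.13, adjusted p = 0.000446). Heatr1 had 9.46, 9.40 and 9.66, against 10.69, 10.56 and 10.90 (-1.21 ± 0.13, adjusted p = 0.000587). For both, more than 1 unit of log2 separated the group means and no array crossed over. Noc4l, a partner of Nop14 in the processome, read 8.14, 8.17 and 8.19, against 9.12, 9.30 and 9.40 (-1.11 ± 0.11, adjusted p = 0.000438), with the 3 arrays labelled EVI1 almost level.

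The fall extended to Wdr43 (-1.14 ± 0.14) and Utp15 (-1.05 ± 0.12), which sit in the same early complex as Wdr75, to Nop14 (-0.83 ± 0.15) and to Utp18 (-0.75 ± 0.10). Their adjusted p-values lay between 0.000823 and 0.00728. Imp4, a protein that helps the U3 small nucleolar RNA pair with the precursor, differed by -0.52 ± 0.15 and did not pass (adjusted p = 0.0526, and 0.0252 without EGFP replicate 1). Wdr3, of the complex that holds Utp18, read 8.50, 8.58 and 8.25 in the arrays labelled EVI1, against 8.72, 9.42 and 8.73 in those labelled EGFP (-0.51 ± 0.20, adjusted p = 0.130). Its EGFP replicate 2 stood apart from the other 2. Rrp9, a U3-specific snoRNP protein, read 7.66, 7.62 and 7.67, against 7.52, 8.12 and 8.001, with EGFP replicate 1 below every array labelled EVI1 (-0.23 ± 0.16, adjusted p = 0.426).

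Setting the 2 stages side by side, 8 of 11 early small-subunit members fell (72.7%) and 5 of 11 polymerase members did (45.5%). The medians of the log2 fold changes were -1.05 and -0.49. Relative to the EGFP mean of each gene, the early small-subunit members averaged -0.95, -0.89 and -0.91 in the arrays labelled EVI1, against -0.15, 0.03 and 0.12 in those labelled EGFP. The polymerase I members averaged -0.56, -0.45 and -0.52, against -0.14, 0.14 and 0.00. The polymerase III members averaged -0.48, -0.46 and -0.72, against 0.14, -0.27 and 0.14, with EGFP replicate 2 the lowest of its group. The mean level of the early small-subunit members minus that of the polymerase members was -0.55 ± 0.05 in arrays labelled EVI1 and -0.15 ± 0.08 in those labelled EGFP (SD, n = 3 each), a difference of -0.40. Its 3 values in arrays labelled EVI1 (-0.56, -0.59 and -0.49) lay below all 3 in those labelled EGFP (-0.24, -0.14 and -0.07). The lists were chosen with the results known, so no test was made of that difference. The split is within the polymerases too, since Polr1a fell as far as Utp20 while Polr1c, Polr1d and Polr1e differed by -0.17 to -0.05.

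**Figure D2:**
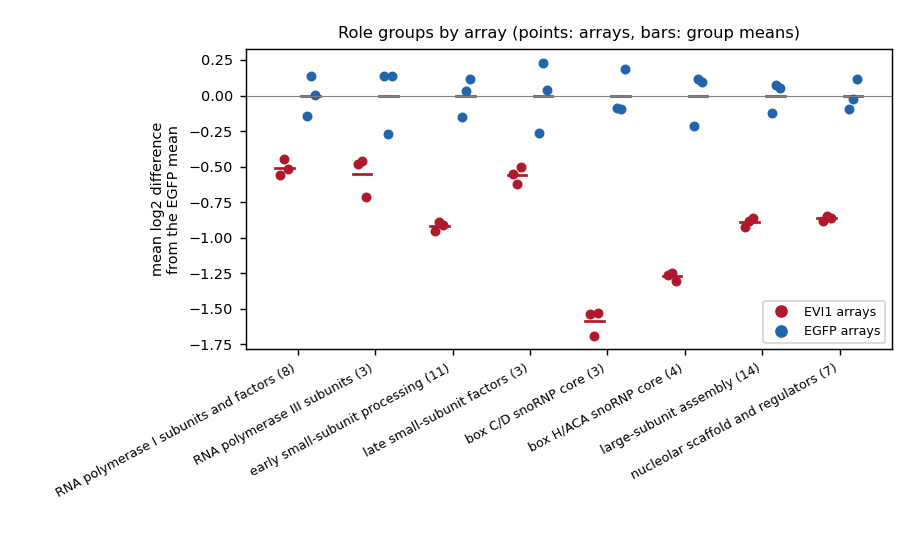
Mean log2 difference from the EGFP mean over the members of each role group (x axis, number of members in brackets), with 1 point per array and bars at the means of the 3 arrays of a group. The arrays labelled EVI1 (red, left of each pair) lie below those labelled EGFP (blue) in every role group, at -0.56 to -0.45 for RNA polymerase I and -1.69 to -1.53 for the box C/D core.

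Of the 3 late small-subunit factors, which act on the particle as it leaves the nucleolus, 1 fell. Ltv1, an assembly factor of the small subunit, read 9.84, 9.96 and 9.98 in the arrays labelled EVI1, against 10.50, 10.56 and 10.76 in those labelled EGFP (-0.68 ± 0.11, adjusted p = 0.00432). Rrp12, which takes part in export, read 7.13, 7.04 and 7.07, against 7.24, 7.51 and 7.52 (-0.34 ± 0.11, adjusted p = 0.0788). Its groups did not overlap, and it passed without EGFP replicate 1 (0.0430). Bysl read 8.08, 7.85 and 8.14, against 8.16, 9.33 and 8.54, with EGFP replicate 1 close to the arrays labelled EVI1 (-0.65 ± 0.27, adjusted p = 0.147). Without that array Bysl passed as well (-0.91, adjusted p = 0.0367).

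The genes of snoRNP core proteins had the largest median changes of the 8 role groups, and all 7 fell at least 2-fold. In the box C/D particle, which methylates ribose, Nop56 read 10.01, 9.85 and 10.06 in the arrays labelled EVI1, against 11.66, 11.61 and 12.01 in those labelled EGFP. Nop56 RNA, which encodes a scaffold protein, was thus 3.45-fold lower (-1.78 ± 0.13, limma adjusted p = 0.000161). Nop58, its partner, read 9.34, 8.99 and 9.24, against 11.03, 10.49 and 11.36 (-1.77 ± 0.21, limma adjusted p = 0.00104). Both scaffold protein genes thus had nearly the same difference. Fbl, the methyltransferase of the particle, had 10.06, 10.09 and 10.12, against 11.05, 11.62 and 11.20 (-1.20 ± 0.15, adjusted p = 0.00131). A second probe set of Fbl differed by -0.38.

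For the box H/ACA particle, which makes pseudouridine, the genes of all 4 core proteins fell. Dkc1, its catalytic subunit dyskerin, which is also part of telomerase, read 8.54, 8.25 and 8.55 in the arrays labelled EVI1, against 10.19, 9.95 and 10.60 in those labelled EGFP. This 3.47-fold lower level (-1.80 ± 0.18, adjusted p = 0.000417) was the largest change among the members. Nhp2, an RNA-binding core protein, read 7.82, 7.72 and 7.89, against 8.67, 9.37 and 9.11 (-1.24 ± 0.17, adjusted p = 0.00214). Gar1, which helps substrate RNA turn over, read 8.13, 8.23 and 8.01, against 8.77, 9.56 and 9.20 (-1.05 ± 0.19, adjusted p = 0.00654). Nop10, the smallest core protein, read 10.76, 11.10 and 10.63, against 11.81, 11.90 and 11.79 (-1.001 ± 0.138, adjusted p = 0.00190). None of the 7 snoRNP members had an array labelled EVI1 that reached the lowest array labelled EGFP, and all 7 passed with any 1 array left out.

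**Figure D3:**
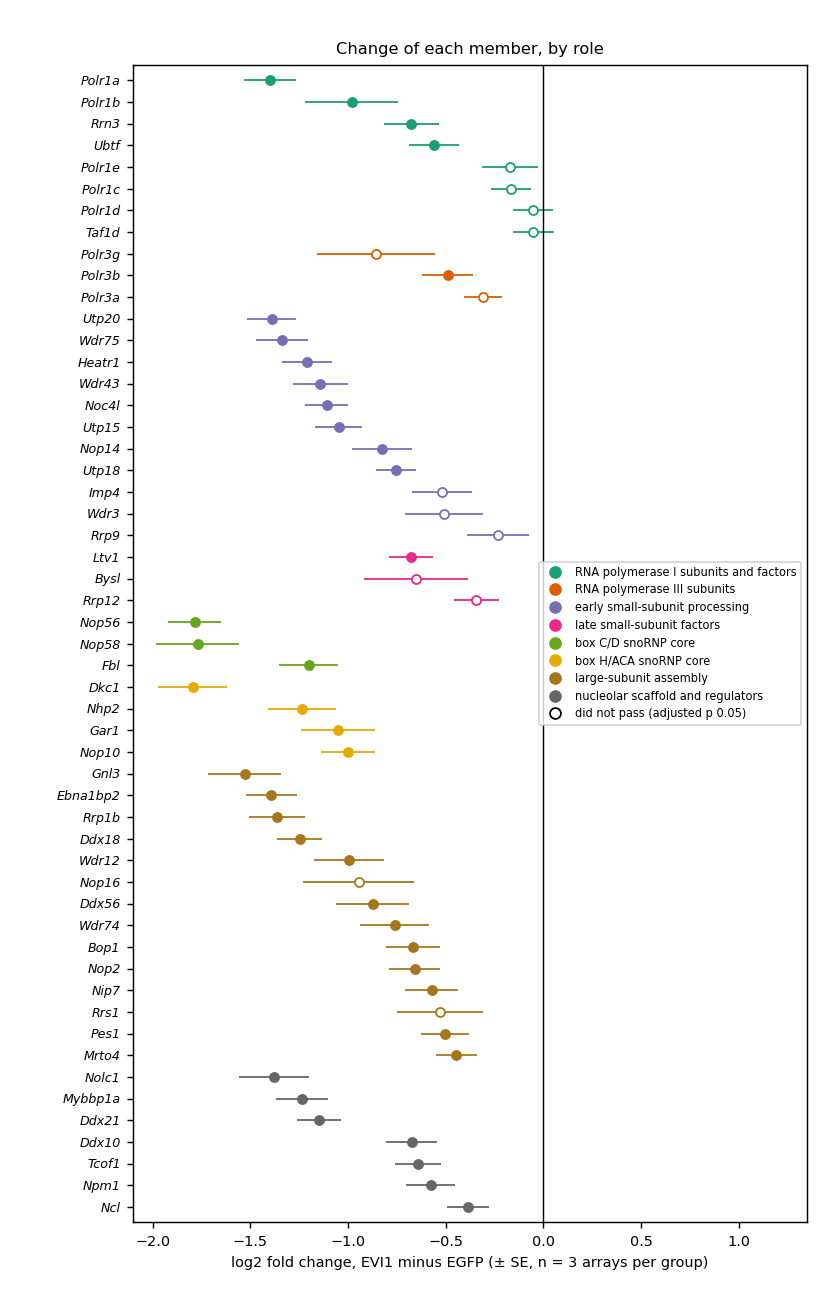
Log2 fold change (x axis, EVI1 minus EGFP, bars ± SE, 3 arrays per group) of each of the 53 members, coloured by role and ordered within it; filled points passed the limma test and open points did not. All points lie left of 0, from Dkc1 at -1.80 to Polr1d and Taf1d at -0.05.

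Large-subunit assembly genes fell in 12 of 14 cases, with a median of -0.82 and 4 at least 2-fold lower. Gnl3, the nucleolar GTPase nucleostemin, read 8.97, 8.61 and 9.25 in the arrays labelled EVI1, against 10.44, 10.24 and 10.73 in those labelled EGFP (-1.53 ± 0.19, adjusted p = 0.00112). Ebna1bp2, an early assembly factor, read 9.64, 9.44 and 9.63, against 10.83, 10.86 and 11.19 (-1.39 ± 0.13, adjusted p = 0.000366). Rrp1b, a nucleolar protein related to yeast Rrp1, read 8.28, 8.57 and 8.47, against 9.55, 9.86 and 9.99 (-1.36 ± 0.14, adjusted p = 0.000567). In these 3 genes every array labelled EVI1 lay well below every array labelled EGFP. Ddx18, an RNA helicase, had 9.49, 9.45 and 9.60, against 10.63, 10.92 and 10.74 (-1.25 ± 0.12, adjusted p = 0.000346), and its second probe set gave -1.23.

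Pes1, Bop1 and Wdr12 form 1 complex needed for processing of large-subunit RNA, and all 3 fell, by different amounts (-0.50 ± 0.12, -0.67 ± 0.14 and -0.99 ± 0.18). Nop2, a methyltransferase of large-subunit RNA, fell by 0.66 on the log2 scale (adjusted p = 0.00925). Further falls were measured for the helicase Ddx56 (-0.87 ± 0.19), for Wdr74 (-0.76 ± 0.18), for Nip7 (-0.57 ± 0.14) and for Mrto4, a relative of a ribosomal stalk protein (-0.45 ± 0.10). A second probe set of Mrto4, with a lower mean over all arrays, differed by -1.35. In the arrays labelled EGFP its mean was 8.86, against 8.83 for the first. Nop16 read 8.63, 9.04 and 9.07 in the arrays labelled EVI1, against 9.37, 10.56 and 9.65 in those labelled EGFP (-0.95 ± 0.28, adjusted p = 0.0540). It passed without EGFP replicate 1 (0.0244) or 2 (0.0373). Rrs1, which in yeast helps bring in the short ribosomal RNA, read 8.49, 7.997 and 8.35, against 9.13, 8.33 and 8.96, with EGFP replicate 2 inside the range of the arrays labelled EVI1 (-0.53 ± 0.22, adjusted p = 0.158). Without that array the difference was -0.77 (0.0116).

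Several large-subunit calls were lost when single arrays were left out, in fits with fewer arrays. Without EVI1 replicate 3 only 7 of the 14 passed, and Wdr74, Pes1, Ddx56, Nip7 and Mrto4 lost their calls (limma adjusted p 0.0580 to 0.0834). Without EGFP replicate 3, Wdr74, Bop1, Pes1 and Nip7 lost theirs (0.0518 to 0.0841), and without EGFP replicate 1, Pes1, Nip7 and Mrto4 did (0.0507 to 0.0663). Without EVI1 replicate 1, Wdr74, Ddx56 and Mrto4 lost theirs (0.0501 to 0.0679), and without EVI1 replicate 2, Pes1 and Nip7 did (0.0572 and 0.0802).

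All 7 genes of nucleolar scaffold proteins and regulators fell, 3 of them at least 2-fold. Nolc1, a chaperone of snoRNPs, read 8.86, 8.83 and 9.09 in the arrays labelled EVI1, against 9.90, 10.49 and 10.53 in those labelled EGFP (-1.38 ± 0.18, adjusted p = 0.00150). Mybbp1a, a nucleolar regulator of RNA polymerase I transcription and precursor processing, read 8.09, 8.13 and 8.16, against 9.13, 9.36 and 9.60 (-1.24 ± 0.13, adjusted p = 0.000637). Ddx21, a helicase that couples transcription to processing, read 8.98, 9.15 and 9.24, against 10.18, 10.28 and 10.36 (-1.15 ± 0.11, adjusted p = 0.000438). All 3 were more than 2-fold lower, with no overlap between the groups. Tcof1, the treacle protein that binds RNA polymerase I and Nolc1, read 8.50, 8.29 and 8.55, against 9.06, 9.21 and 9.005 (-0.64 ± 0.12, adjusted p = 0.00653). Ddx10, a helicase of the early precursor in yeast, fell by 0.67 on the log2 scale (adjusted p = 0.00915).

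Npm1 and Ncl, genes of abundant nucleolar proteins, fell less than 2-fold. Npm1, nucleophosmin, read 12.32, 12.50 and 12.21 in the arrays labelled EVI1, against 12.96, 12.76 and 13.04 in those labelled EGFP, which is 1.49-fold lower (-0.58 ± 0.12, adjusted p = 0.0144). Ncl, nucleolin, read 12.40, 12.43 and 12.29, against 12.75, 12.65 and 12.86, which is 1.30-fold lower (-0.38 ± 0.11, adjusted p = 0.0410). The groups did not overlap for either gene. Both read near the top of the arrays, whose highest values were 13.8 to 13.9, and whether the response was flatter there was not tested. Npm1 lost its call without EGFP replicate 3 (limma adjusted p = 0.0584), EVI1 replicate 1 (0.0521) or EVI1 replicate 3 (0.0615). Ncl lost its call without EGFP replicate 1 (0.0935) or 3 (0.136) and without EVI1 replicate 1 (0.103), 2 (0.0853) or 3 (0.130).

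Genes of the same pathway outside the list were counted in the same way, where 9.18% of all genes fell. Of 33 other small-subunit processing factors 18 fell, with a median of -0.60, with the smallest p-values for Rcl1 (-0.85 ± 0.11, adjusted p = 0.00136) and Aatf (-0.82 ± 0.11, adjusted p = 0.00163). Of 34 other large-subunit factors 18 fell, with a median of -0.52. Mdn1, the giant ATPase that strips factors from the large particle, differed by -1.48 ± 0.11 (adjusted p = 0.000154) and Urb2 by -1.11 ± 0.11 (adjusted p = 0.000495). Of 10 subunits and cofactors of the RNA exosome, which trims ribosomal RNA ends, 7 fell (median -0.73), among them the nuclease Dis3 (-1.44 ± 0.14, adjusted p = 0.000366) and Exosc1 (-1.39 ± 0.15, adjusted p = 0.000563). With the replicate block 19, 22 and 7 genes of these 3 lists fell, with Riok1 (limma adjusted p = 0.0351) gained in the first and Rpf1 (0.0436), Rsl24d1 (0.0311), Ddx31 (0.0217) and Ddx51 (0.0403) in the second, all named after their values were seen. With single arrays left out, 12 to 19, 16 to 21 and 6 to 8 fell, the 12 being without EVI1 replicate 3.

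Polymerase genes outside the list were counted likewise, where 9.18% of all genes fell and 9.06% rose. With lists this short, a few calls can lie near those shares. Of 8 other RNA polymerase I subunits and factors 3 fell and 1 rose, with a median of -0.12: Cd3eap (-0.60 ± 0.12, adjusted p = 0.0103), the TATA-binding protein Tbp (-0.46 ± 0.10, adjusted p = 0.0158) and Taf1a (-1.005 ± 0.276, adjusted p = 0.0383) fell. Znrd1, a small subunit of RNA polymerase I, rose by 0.64 ± 0.18 (adjusted p = 0.0445). Taf1a, Znrd1, Polr3d, Polr2g, Polr2j and Taf1b were named after their values were seen. Of 5 subunits shared by all 3 polymerases 2 fell (median -0.55), namely Polr2h (-0.99 ± 0.21, adjusted p = 0.0123) and Polr2f (-0.70 ± 0.15, adjusted p = 0.0133). Of 16 other RNA polymerase III genes 3 fell (median -0.23), namely Gtf3c5 (-0.55 ± 0.12, adjusted p = 0.0121), Gtf3a (-0.90 ± 0.20, adjusted p = 0.0151) and Polr3d (-0.43 ± 0.12, adjusted p = 0.0464, and 0.0565 with the replicate block). Of 8 RNA polymerase II subunits 2 fell (median -0.31), namely Polr2i (-0.54 ± 0.11, adjusted p = 0.0114) and Polr2b (-0.43 ± 0.12, adjusted p = 0.0470). Polr2g, another subunit of RNA polymerase II, differed the other way, by 0.59 ± 0.17 (adjusted p = 0.0520). With the replicate block it rose (adjusted p = 0.0274), as 10.9% of all genes did, and Polr2j fell (-0.41 ± 0.15, adjusted p = 0.0494), so that 3 of the 8 fell and 1 rose.

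Many of these polymerase calls did not hold with 1 array left out, in fits with fewer arrays. Polr2b (limma adjusted p 0.0509 to 0.156) and Polr3d (0.0629 to 0.152) lost their calls without any 1 array, Taf1a without any 1 labelled EVI1 (0.0796 to 0.151), and Znrd1 without any 1 array other than EGFP replicate 3 (0.0758 to 0.148). Without EVI1 replicate 3, Tbp (0.0589), Polr2h (0.0631), Gtf3a (0.0690) and Gtf3c5 (0.0516) lost theirs. Without EGFP replicate 3, Tbp (0.0544) and Polr2f (0.0554) did, and without EVI1 replicate 1 Polr2f did (0.0527). With single arrays left out, 1 to 3 of the other RNA polymerase I genes, 0 to 3 of the other RNA polymerase III genes, 1 to 2 of the shared subunits and 1 to 2 of the RNA polymerase II subunits fell. Polr2g rose without EGFP replicate 2 (0.0107) or EVI1 replicate 1 (0.0361), and Taf1b, a factor of RNA polymerase I, rose without EVI1 replicate 3 (0.0254).

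The genes of the ribosomal proteins themselves read mostly level between the groups. Of 54 cytosolic ribosomal protein genes measured, 1 fell, Rpl12 (-1.20 ± 0.22, adjusted p = 0.00631), and 53 did not pass, with a median of 0.02. Without EGFP replicate 2, Fau also passed, as a rise (0.50, adjusted p = 0.0244); it was named after its value was seen. The array means of the 54 genes were 11.83, 11.94 and 11.86 in the arrays labelled EVI1, against 11.79, 11.98 and 11.87 in those labelled EGFP, and the groups overlapped. These lie above the array means of the members, 9.08 to 10.05. Whether the response was flatter at such levels was not tested. Only 54 of 78 listed genes were measured, 37 of them have several probe sets, and these short abundant messages have many near-identical pseudogene copies, so single values are uncertain.

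**Figure D4:**
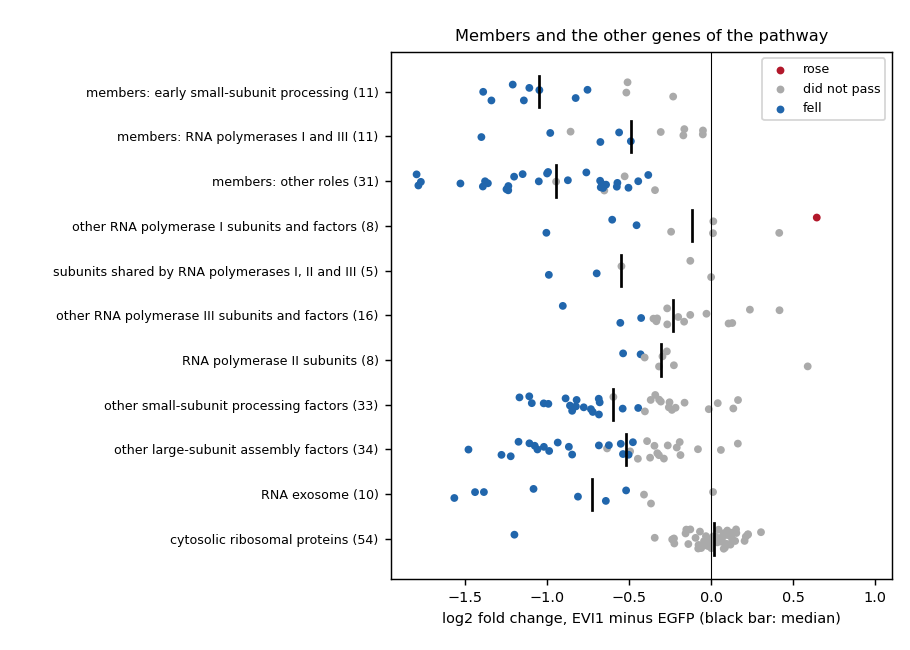
Log2 fold change (x axis, EVI1 minus EGFP) of each measured gene of the member groups and of the other lists of the pathway (rows, number of genes in brackets), with black bars at the medians; red genes rose, blue fell and grey did not pass. The early small-subunit members lie around -1.05, the polymerase members around -0.49 and the cytosolic ribosomal protein genes around 0.02.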

How the data were processed

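Total RNA of sorted cells was hybridised to 6 Affymetrix Mouse Gene ST arrays. The authors deposited log2 intensities made by RMA, per the submitters' processing notes; its version is not given in the sources used here. RMA brings arrays to a common distribution, so a change of total RNA per cell would not appear. Arrays have no depth; their number limits the precision.

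Of 34760 probe sets, 21640 had exactly 1 symbol in the annotation, 1321 several and 11799 were unnamed here. The one with the highest mean stood for each of 19937 genes, with no filter. Groups were compared with limma 3.58.1 in R 4.3.3 (lmFit, eBayes, two-sided, Benjamini-Hochberg over all genes, adjusted p under 0.05), a procedure tested on simulated data. Log2 fold changes are EVI1 minus EGFP, SE is from the fit and SD is over 3 arrays.

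The members and lists were chosen with earlier results of these data known, so lists got counts and medians and no test. Values per array are given, in each role group, for up to 4 members of smallest p and up to 2 of largest p. In each other list the up to 2 smallest p among changed genes are named; Polr3gl was added after its values were seen. Of the listed symbols, 4 were measured under another symbol. Same-numbered arrays deviated together from the group means (r over genes 0.491, 0.269 and 0.197 for replicates 1 to 3). The main fit has no replicate term, so its counts, SEs and p-values do not use this pairing. A fit with the replicate number as a block was an alternative. The blocked value is given where it changes the call of a ribosome biogenesis or polymerase gene. Alternatives were a further quantile normalisation, median centring, the mean of all probe sets, filters on dim genes, trended and robust estimation, the block, each array left out, and, added after seeing the data, the brightest probe set with a RefSeq messenger RNA accession. Olfactory receptor genes (1027) served as the dim level.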

Additional observations from a re-analysis of the deposited data

How the results depend on the processing

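The fall of the members held under each alternative tried: 30 to 43 fell and none rose. With the replicate number as a block 43 members fell, 10 of them in early small-subunit processing and 5 among the polymerases, and 4361 genes changed in all, against 3638 without it; the block gave 4 calls and took 1, as described above, and changed no other call of a member. A further quantile normalisation gave 39 members, and filters on dim genes gave 42. With arrays left out in turn, 2289 to 4098 genes changed (1110 to 2061 fell, 1179 to 2037 rose), with the lowest count without EVI1 replicate 3. In the same fits 8 to 9 early small-subunit and 2 to 6 polymerase members fell. The polymerase count was 2 without EVI1 replicate 1 or 3, and 3 without EVI1 replicate 2 or EGFP replicate 3. The median log2 fold change then ran from -0.91 to -0.73 for all members, -1.13 to -0.96 for early small-subunit processing and -0.56 to -0.42 for the polymerases, and the difference of the last 2 medians from -0.70 to -0.40, against -0.56 with all arrays. With the mean of all probe sets of a gene, the polymerase median was -0.56 and that difference -0.49; with the probe set that has a RefSeq messenger RNA accession, chosen after seeing the data, they were -0.56 and -0.49 too. Polr1d ran from -0.087 to 0.0041 in those fits, and was positive without EVI1 replicate 1. Fewer arrays were fitted in those cases; for other shifts the cause was not tested. The number of arrays, 3 a group, limits the precision of every difference.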

Other observations

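The arrays labelled EGFP spread more than those labelled EVI1 in these genes. The median SD of a member was 0.114 in arrays labelled EVI1 and 0.209 in those labelled EGFP, and 45 of the 53 members (84.9%) had the larger SD in EGFP, against 58.7% of all genes. Over all genes the medians were 0.133 and 0.156. EGFP replicate 2 was the highest of its group in 21 members (39.6%) and the lowest in 18 (34.0%), against 32.7% and 40.9% of all genes. Among the 13 members that did not pass it was the highest in 8, such as Polr1e, Wdr3, Bysl and Nop16, and the lowest in 4, such as Polr3g and Rrs1.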
